A study of Triticum aestivum with 161 samples.

Results

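WSZ1b, WSZ1c, WSZ2a and WSZ2b are serpins of the wheat grain, and each was read on 1 probe set of the Affymetrix wheat array. The probe sets were Ta.1314.1.S1_at for WSZ1b, Ta.118.1.S1_at for WSZ1c, Ta.119.1.S1_x_at for WSZ2a and Ta.117.1.S1_at for WSZ2b. They are 4 of the 771 genes that the array annotation names, and 4 of its 61288 probe sets. They were chosen for their difference between the highest and the lowest nitrogen supply, so their nitrogen values are given as a description, without a test. The suffix x_at stands for probe sets in which some probes can match other transcripts, and signals of single probes were not analysed here. In the wheat gene table of RefSeq (assembly IWGSC CS RefSeq v2.1), WSZ1b and WSZ2b lie on the same chromosome of the D subgenome with 751 annotated genes between them, WSZ1c belongs to the A subgenome and WSZ2a to the B subgenome.

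Serpins are protease inhibitors that present an exposed loop as bait and lock the protease that cuts it into an irreversible complex. In wheat they accumulate in the starchy endosperm, the tissue that stores starch and gluten proteins, and the loops of several of them hold glutamine-rich stretches that resemble the repeats of the prolamin storage proteins. Purified wheat grain serpins inhibit chymotrypsin-like proteases of mammals in the test tube.

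Total RNA came from developing grain (caryopses) of bread wheat, taken from tagged heads of field plots 21 days after anthesis, in the middle of grain filling. The 6 cultivars were Cordiale, Hereward, Istabraq, Malacca, Marksman and Xi_19. At Rothamsted each was grown in 2009 and 2010 with 100, 200 and 350 kg of nitrogen per ha (N100, N200 and N350) and in 2011 with N200, and at RAGT in 2010 and 2011 with N200. The 161 arrays, 1 per plot, thus fell into 54 groups. Each group had 3 plots except Malacca at N200 at Rothamsted in 2009, which had 2. Caryopses hold pericarp, endosperm and embryo together, so a lower signal from fewer cells of a type and from less RNA per cell cannot be told apart.

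The deposited values are log2 signals, and those of all probe sets ran from 1.59 to 15.06. The number of arrays limits the precision: the median SD between plots of a group was 0.170 over all probe sets, and it was 0.114 for WSZ1b, 0.331 for WSZ1c, 0.333 for WSZ2a and 0.275 for WSZ2b, each as a pooled value within groups. The plots of a group are called biological replicates by the labels, and no pair of arrays of a group held near-identical values. The mean of 8 endosperm genes, among them gliadins and granule-bound starch synthase, lay between 13.04 and 13.87 in every plot. The mean of 4 embryo and maturation genes (EM, EMH2, Rab15 and WGA2) ran from 5.94 to 11.65 over the plots, and that of 4 genes of green tissue (PsbP, PRK, Trx-M and rbcl) from 10.48 to 12.03. All plots thus held the transcripts of endosperm, while those of embryo and maturation varied widely.

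Across the 54 groups the 4 serpins differed in how far their signal moved. The group means of WSZ1b spanned 0.78 on the log2 scale, those of WSZ2b 2.04, those of WSZ1c 3.36 and those of WSZ2a 5.83. Over the 161 plots, WSZ1b read 12.91 at the lowest, 13.72 at the median and 14.11 at the highest. Its mean of 13.71 lay above that of 99.85% of probe sets. Whether differences shrink near the upper end of the signals was not tested. For WSZ1c the lowest, median and highest plots were 8.29, 10.70 and 12.34. WSZ2a read 7.50, 12.44 and 13.54, and WSZ2b 11.25, 12.93 and 13.83. When the groups were put in order, neighbours mostly overlapped: the plots of 53 of the 53 neighbouring pairs overlapped for WSZ1b, 52 for WSZ1c and WSZ2b, and 49 for WSZ2a. The order therefore separates its 2 ends from each other but not neighbours. It rests on values as deposited, which may have been normalized separately in each season. In these the median difference over all probe sets, 2011 minus 2010 at N200, was 0.32 at Rothamsted and 0.30 at RAGT.

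In the values as deposited, Hereward grown in 2011 headed the order for 3 of the 4 serpins. Its group means were 14.05 (Rothamsted) and 14.04 (RAGT) for WSZ1b, 12.08 at both sites for WSZ1c, and 13.53 at RAGT for WSZ2a. WSZ2b was highest in Malacca at N350 at Rothamsted in 2010, with 13.78, followed by Hereward at RAGT in 2011 with 13.67. The low ends were N100 groups in each case. Malacca at N100 in 2010 was lowest for WSZ1b, at 13.27, and Xi_19 at N100 in 2010 was lowest for WSZ1c, at 8.72 ± 0.68 (SD, n = 3), and for WSZ2b, at 11.73. The 9 lowest groups of WSZ2a were the 9 groups of Malacca, down to 7.70 at N100 in 2009.

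The sources of this variation differed between the genes. Over the 107 plots of Rothamsted in 2009 and 2010, nitrogen supply took 47.9% of the sum of squares of WSZ1b, 47.1% of that of WSZ1c and 47.4% of that of WSZ2b, but 14.0% of that of WSZ2a. Cultivar took 69.0% for WSZ2a, against 10.2% for WSZ1c, 5.30% for WSZ2b and 1.59% for WSZ1b. Over the 89 plots at N200, the environment (site and season) took 68.1% for WSZ1b, 66.0% for WSZ1c and 42.8% for WSZ2b, while cultivar took 83.6% for WSZ2a. The environment shares rest on values as deposited, which may have been normalized separately in each season. The nitrogen shares rest on plots that include those on which the genes were chosen for nitrogen. They are thus a description that is not independent of that choice, and shares of other probe sets were not taken.

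All 4 serpins read higher with more nitrogen. Averaged over the cultivars and both seasons at Rothamsted, the signal at N350 was above that at N100 by 1.40 on the log2 scale for WSZ1c (SE 0.08, 2.65-fold), by 1.15 for WSZ2a (SE 0.08, 2.21-fold), by 0.88 for WSZ2b (SE 0.06, 1.84-fold) and by 0.30 for WSZ1b (SE 0.03, 1.23-fold). This is the contrast on which the genes were chosen, so nothing is read from it beyond its size; limma called 23.0% of all probe sets in it, at an adjusted p under 0.05, 10.7% as higher and 12.3% as lower. Without Malacca the differences were 1.32 for WSZ1c, 0.91 for WSZ2a, 0.79 for WSZ2b and 0.26 for WSZ1b. The 4 embryo and maturation genes did not pass in this contrast (differences of 0.09 to 0.26), 3 of the 4 green-tissue genes rose (differences of 0.00 to 0.28 over the 4), and of the 8 endosperm genes 3 rose and 3 fell. Their part in the serpin values was not tested.

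Most of the difference lay between N100 and N200. From N100 to N200 the means were higher by 1.08 for WSZ1c, 0.84 for WSZ2a, 0.68 for WSZ2b and 0.22 for WSZ1b, and from N200 to N350 by a further 0.33, 0.31, 0.20 and 0.08 in the same order. In 2010 the first step was the larger one in 6 of 6 cultivars for WSZ1c, WSZ2a and WSZ2b and in 5 of 6 for WSZ1b. In 2009 it was the larger one in 5 of 6 cultivars for WSZ1c and WSZ2b and in 4 of 6 for WSZ1b and WSZ2a. Over both seasons, limma called 14.9% of all probe sets between N100 and N200 and 0.0376% between N200 and N350. A stronger first step was thus not particular to the serpins. The share of all probe sets with a larger first step by cultivar was not counted.

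The plots show the same steps. In 2010 the lowest, median and highest of the 18 WSZ1c plots were 8.29, 9.48 and 10.69 at N100, then 9.85, 11.05 and 11.99 at N200, then 10.71, 11.61 and 12.34 at N350. The N350 plots thus lay wholly above the N100 plots, with N200 overlapping both. In 2009 the WSZ1c plots were 8.95, 9.67 and 10.15 at N100, 9.79, 10.40 and 11.04 at N200, and 9.60, 10.36 and 11.69 at N350, so the N200 and N350 plots covered much the same range. WSZ2b showed a similar pattern, with 11.25, 12.30 and 12.88 at N100 and 12.97, 13.48 and 13.83 at N350 in 2010, and with 11.95, 12.22 and 13.02 at N100 and 11.92, 12.95 and 13.39 at N350 in 2009. In 2010 its N350 plots all lay above its N100 plots, and in 2009 they overlapped.

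The WSZ2a plots are given without Malacca, whose plots lay below the others within each supply and season. In 2010 the 15 plots of the other cultivars read 11.55, 11.84 and 12.48 at N100 (lowest, median and highest), 12.32, 12.81 and 13.33 at N200, and 12.77, 13.21 and 13.47 at N350. In 2009 they read 11.31, 11.77 and 12.72 at N100, 11.34, 12.32 and 12.70 at N200, and 11.75, 12.54 and 13.01 at N350. WSZ1b moved over a narrow range, from 13.19, 13.37 and 13.65 at N100 to 13.60, 13.81 and 13.88 at N350 in 2010, and from 13.36, 13.59 and 13.80 to 13.53, 13.77 and 13.95 in 2009. Its plots overlapped between N100 and N350 in both seasons.

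**Figure D1:**
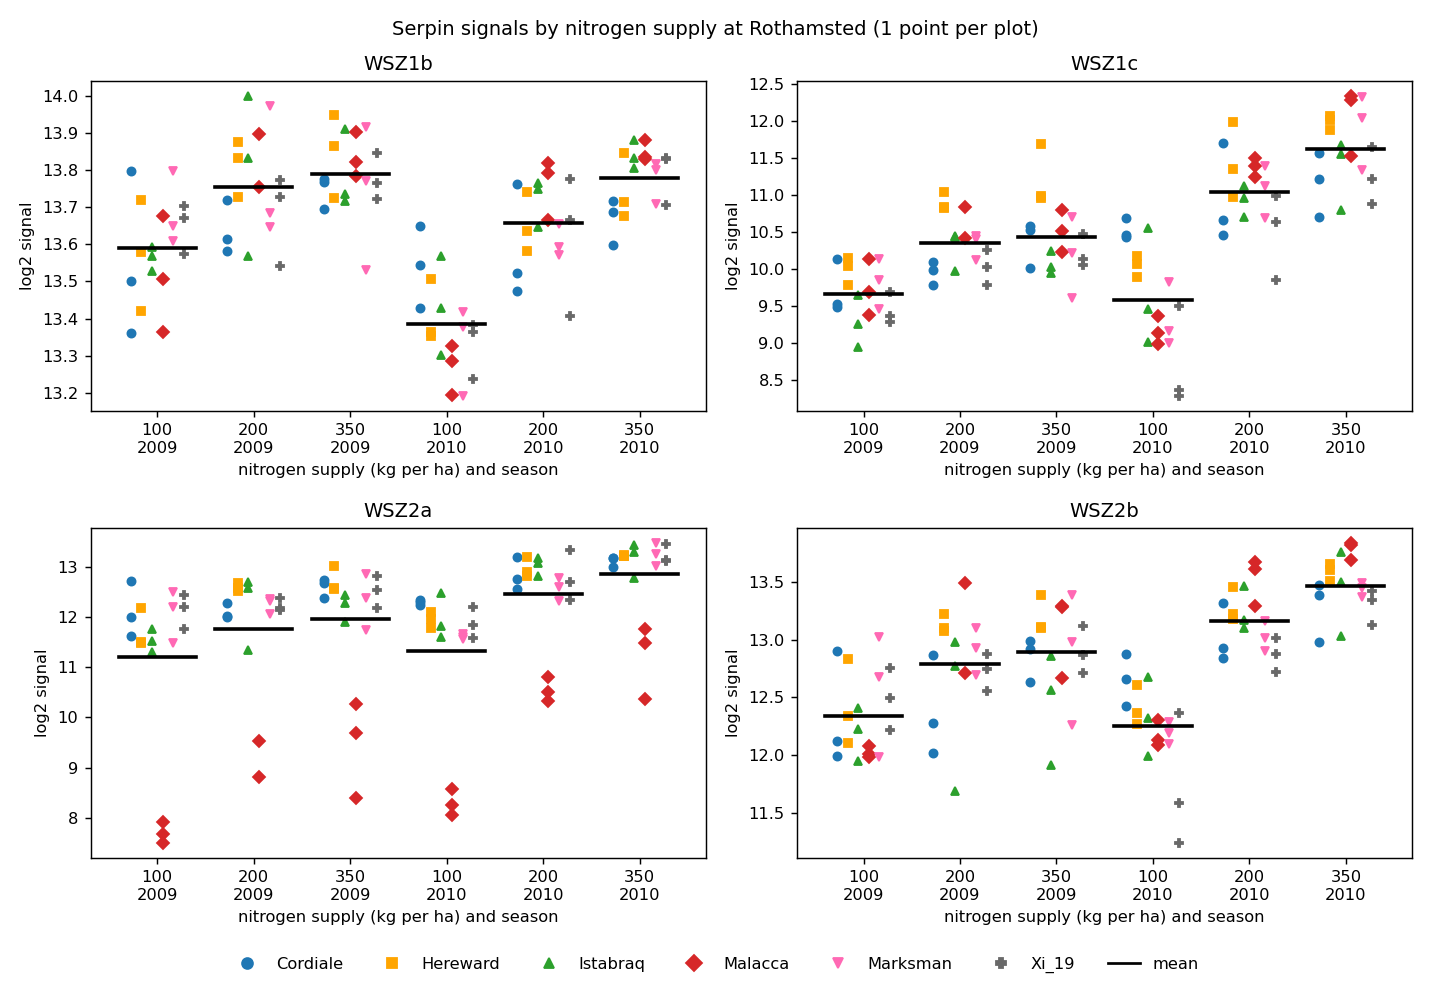
Log2 signal of each serpin (vertical axis, 1 panel per gene) in every Rothamsted plot of 2009 and 2010 by nitrogen supply in kg per ha (horizontal axis), coloured by cultivar, with black bars at the mean of the 6 cultivar means. In 2010 the N350 plots of WSZ1c, from 10.71 to 12.34, stand above its N100 plots, from 8.29 to 10.69, and within each nitrogen supply and season the Malacca plots of WSZ2a lie below those of the other cultivars.

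Within a cultivar and season, complete separation of the N350 from the N100 plots was found in 10 of 12 combinations for WSZ1c, in 9 for WSZ1b and WSZ2a and in 8 for WSZ2b. Of all probe sets, 0.121% reached at least 8 combinations in this direction, 0.0605% at least 9 and 0.0245% at least 10. These counts repeat the contrast on which the genes were chosen. By season, the separated combinations were 4 of 6 in 2009 and 6 of 6 in 2010 for WSZ1c, 3 and 6 for WSZ2a, 2 and 6 for WSZ2b, and 4 and 5 for WSZ1b. Separation by season was not counted for other probe sets. Of the 61178 probe sets, limma called 1097 between N350 and N100 in 2009 and 12242 in 2010, so the higher counts of 2010 are not read as particular to the serpins.

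The question of whether the nitrogen difference was the same in both seasons was tested as the difference between the N350 minus N100 contrasts of 2010 and 2009. WSZ1c, WSZ2a and WSZ2b had a larger nitrogen difference in 2010, and WSZ1b did not pass. For WSZ1c, N350 was above N100 by 0.76 in 2009 (SE 0.11) and by 2.04 in 2010 (SE 0.11, 4.12-fold), which differ by 1.28 (SE 0.15, limma adjusted p = 1.09e-08). For WSZ2a the values were 0.76 and 1.53 and the difference between seasons 0.78 (SE 0.15, limma adjusted p = 0.00127). For WSZ2b they were 0.55 and 1.22 with a difference of 0.66 (SE 0.13, limma adjusted p = 0.000709), and for WSZ1b 0.20 and 0.39 with a difference of 0.19 (SE 0.06, limma adjusted p = 0.0699). In this test 0.690% of all probe sets were called, 0.302% in the direction of a larger value in 2010. Within a season, N350 minus N100 called 12242 of the 61178 probe sets in 2010 and 1097 in 2009. More nitrogen calls in 2010 were thus not particular to the serpins. The serpins were chosen for a large nitrogen difference, and its change was not compared with that of probe sets with a similar difference. Leaving out replicate 2 ended the calls of WSZ2a and WSZ2b (adjusted p = 0.234 and 0.505), and so did leaving out replicate 3 (0.235 and 0.159), while that of WSZ1c held in each case. The embryo and maturation genes had differences of 0.18 to 0.45 in the test between seasons. Of these genes 0 of 4 were called, but 3 of 4 passed without replicate 1. Their part in the serpin values was not tested.

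The larger difference in 2010 was spread over the cultivars, with Cordiale as the exception for WSZ1b and WSZ1c. It was larger than in 2009 in 6 of 6 cultivars for WSZ2a and WSZ2b and in 5 of 6 for WSZ1b and WSZ1c. In Cordiale, WSZ1c at N350 exceeded N100 by 0.66 in 2009 and by 0.64 in 2010 (SE 0.26 each). Its plots read 9.48, 10.14 and 9.52 at N100 and 10.01, 10.53 and 10.58 at N350 in 2009, and 10.69, 10.44 and 10.46 at N100 and 10.71, 11.22 and 11.57 at N350 in 2010. The 3 N350 plots stood above the 3 N100 plots in 2010 and not in 2009.

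Malacca, Marksman and Xi_19 had the widest WSZ1c differences in 2010. Malacca differed by 2.89 in 2010 and 0.78 in 2009, Marksman by 2.58 and 0.37, and Xi_19 by 2.53 and 0.77. The Malacca plots of 2010 read 9.36, 8.98 and 9.14 at N100 and 11.53, 12.29 and 12.34 at N350. Those of Xi_19 read 9.50, 8.29 and 8.36 at N100, 10.98, 9.85 and 10.64 at N200, and 10.87, 11.22 and 11.64 at N350. In both cultivars all N350 plots lay above all N100 plots, and the Xi_19 plots at N100 included the lowest WSZ1c value of the study. Marksman read 9.82, 9.16 and 9.00 at N100 and 12.33, 11.34 and 12.04 at N350 in 2010, but 9.45, 10.13 and 9.85 against 10.22, 9.60 and 10.71 in 2009. In 2009 its N100 and N350 plots overlapped.

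In 2010 Hereward and Istabraq lay between these and Cordiale, and in 2009 theirs were the 2 widest WSZ1c differences, that of Istabraq by a narrow margin. Hereward's WSZ1c difference was 1.22 in 2009 and 1.94 in 2010, where its plots moved from 10.18, 9.90 and 10.07 to 12.07, 11.88 and 12.02, and Istabraq's was 0.79 and 1.67. For WSZ2b the differences in 2010 ran from 0.62 in Cordiale to 1.60 in Malacca, where the plots read 12.13, 12.09 and 12.31 at N100 and 13.69, 13.81 and 13.83 at N350. In 2009 they ran from 0.25 in Istabraq to 1.05 in Malacca (SE 0.22 each). The WSZ2b plots of Istabraq in 2009 read 11.92, 12.86 and 12.57 at N350 and 11.69, 12.98 and 12.77 at N200, so 1 plot was low at each supply.

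**Figure D2:**
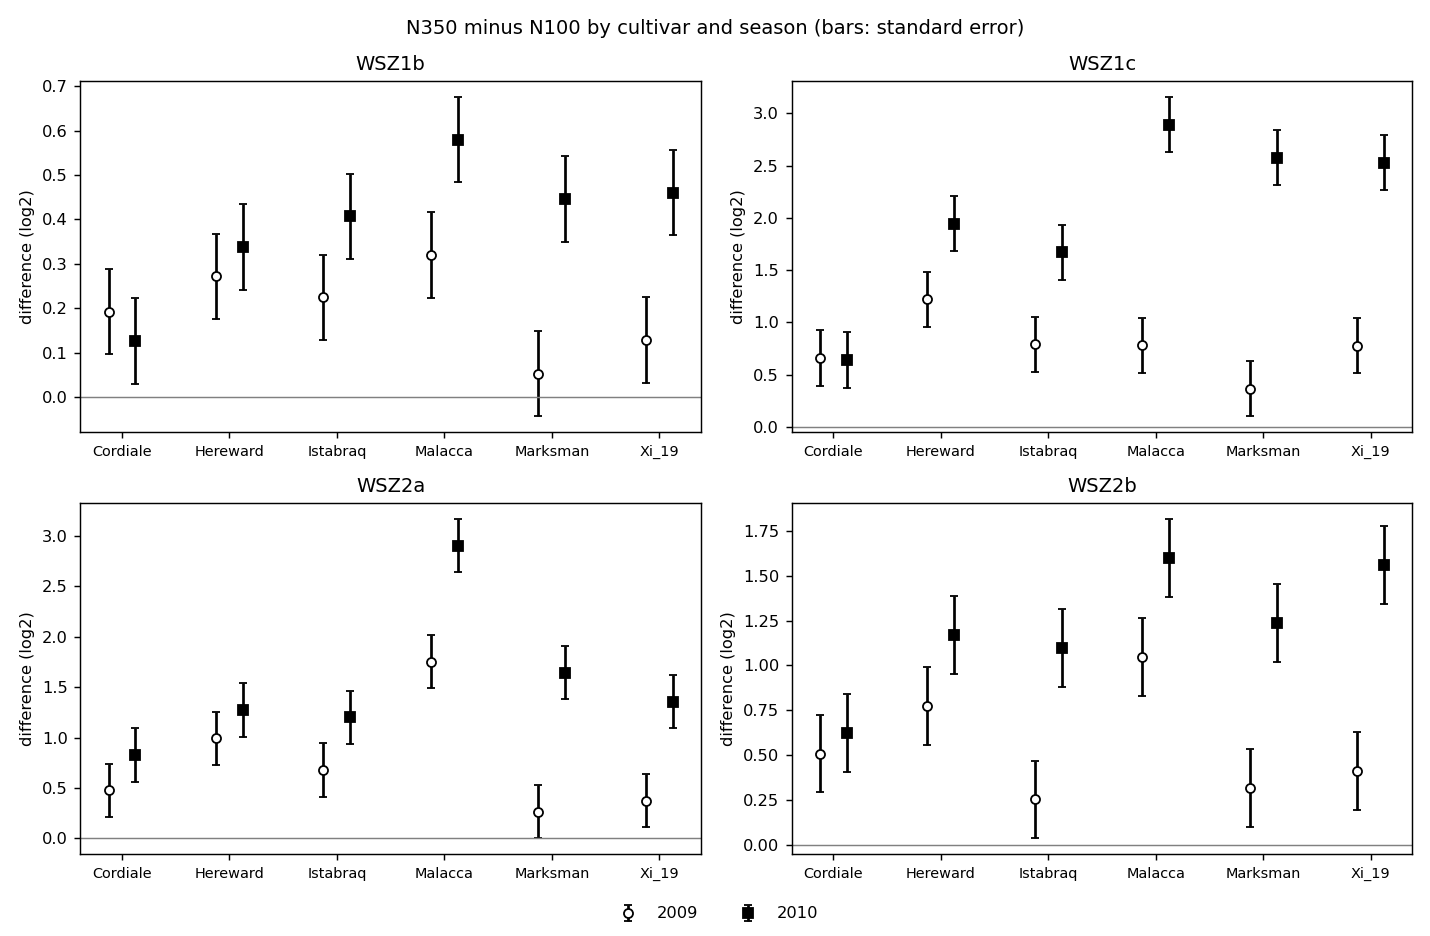
Difference in log2 signal between N350 and N100 (vertical axis) for each cultivar (horizontal axis), with open circles for 2009, filled squares for 2010 and bars of 1 SE from the limma fit, 1 panel per serpin. The WSZ1c values of 2010 reach 2.89 in Malacca, while those of Cordiale, 0.66 and 0.64, lie together.

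Malacca stood apart for WSZ2a. At N200, over the 5 environments, its mean was 9.79 against 12.72 in the mean of the other cultivars, a difference of -2.92 on the log2 scale (SE 0.10, 7.59-fold, limma adjusted p = 6.56e-54), in a contrast that called 13.2% of all probe sets, 6.64% as lower. The lowest, median and highest of its 14 plots were 8.81, 9.64 and 10.84, and those of the 75 plots of the other cultivars 11.34, 12.70 and 13.54, so the groups did not overlap. Cultivar alleles and the match of the probes to them were not analysed here, so a lower transcript level and a weaker match to the probes cannot be told apart in this value.

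The distance held in all 9 combinations of environment and nitrogen supply, which was not counted for other probe sets. The gap between the highest Malacca plot and the lowest plot of any other cultivar was 3.38 at N100 in 2009 and 1.01 at N350 in 2010, with the others between. At Rothamsted in 2009 the WSZ2a plots of Malacca read 7.92, 7.50 and 7.67 at N100, 8.81 and 9.54 at N200, and 8.40, 10.28 and 9.68 at N350. In 2010 they read 8.05, 8.58 and 8.26, then 10.33, 10.80 and 10.51, then 10.36, 11.48 and 11.76. At N100 the 3 plots lay close together and at N350 they were spread over more than 1 log2 unit in both seasons. At N200 they read 9.57, 9.71 and 9.47 at RAGT in 2010, 9.54, 9.02 and 9.45 at RAGT in 2011 and 10.38, 9.72 and 10.84 at Rothamsted in 2011. The mean difference from the other cultivars was -4.22 at N100, -3.10 at N200 and -3.02 at N350 in 2009, and -3.64, -2.29 and -1.998 in 2010.

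The other serpins of Malacca differed by far less from the other cultivars. Its WSZ1b (0.01, SE 0.03, limma adjusted p = 0.872), WSZ1c (0.12, SE 0.10, limma adjusted p = 0.491) and WSZ2b (0.21, SE 0.08, limma adjusted p = 0.0527) did not pass at N200. The value of WSZ2b lay near the threshold and passed under 6 of 9 alternatives, among them array weights (adjusted p = 0.00197) and leaving out replicate 1 (0.00929), while it was 0.567 without replicate 2. The 4 embryo and maturation genes, the 4 green-tissue genes and the 6 probe sets of other inhibitors held 0 calls in this contrast. Of the 8 endosperm genes 1 was higher and 3 were lower.

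The x_at probe set of the alpha gliadin Gli-D2-1, a gluten storage protein, varied from 4.60 to 12.61 between Malacca plots. At N350 in 2009 it read 4.70, 12.46 and 12.61 in the plots in which WSZ2a read 8.40, 10.28 and 9.68. In 2010 it read 7.19, 6.76 and 12.60 beside WSZ2a at 10.36, 11.48 and 11.76. At Rothamsted in 2011 it read 7.01, 8.05 and 11.82 beside 10.38, 9.72 and 10.84. The plot with the highest Gli-D2-1 had the highest WSZ2a in 5 of the 9 Malacca groups. Over the 26 Malacca plots, the deviations of both probe sets from their group means correlated with Pearson's r = 0.69 and Spearman's rho = 0.47, and those of the other Gli-D2-1 probe set and WSZ2a with 0.44 and 0.51. Other genes reached the same size: the 3 probe sets of EMH2, an embryo and maturation gene, had r = 0.69 to 0.74 with WSZ2a, those of EM had 0.70 and 0.73, and wci, an inhibitor by its symbol, had -0.71. The part of these genes in the WSZ2a values was not tested.

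Whether the nitrogen difference itself varied with cultivar was tested with an F test, which called 0.0212% of all probe sets. WSZ2a was called, with a range over cultivars of 1.68 (limma adjusted p = 0.00068). N350 exceeded N100 by 2.33 in Malacca and by 0.65 in Cordiale, 0.86 in Xi_19, 0.94 in Istabraq, 0.96 in Marksman and 1.13 in Hereward (SE 0.19 each). Without Malacca the range was 0.48 (limma adjusted p = 0.997), so the call rested on that cultivar. It also ended when replicate 2 (adjusted p = 0.817) or replicate 3 (0.889) was left out, and with a spread taken from the N100 and N350 arrays alone (0.202). WSZ1c, with a range of 1.19 (limma adjusted p = 0.274), WSZ2b, with 0.76 (0.614), and WSZ1b, with 0.29 (0.826), did not pass, and WSZ1c passed without replicate 1 (range 1.35, adjusted p = 0.00426).

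At N200 the cultivars differed for WSZ1c, WSZ2a and WSZ2b and not detectably for WSZ1b. The F test over cultivars, which called 46.5% of all probe sets, gave a range of means of 0.71 for WSZ1c (limma adjusted p = 7.98e-07), 3.18 for WSZ2a (adjusted p = 1.07e-51), 0.47 for WSZ2b (adjusted p = 5.65e-05) and 0.09 for WSZ1b (adjusted p = 0.409). Without Malacca the range of WSZ2a was 0.45 and still passed (adjusted p = 0.00219). WSZ1b is thus the serpin with the narrowest spread between cultivars on its own scale, with means from 13.73 in Cordiale to 13.815 in Hereward. These means lie near the upper end of the signals, and whether differences shrink there was not tested.

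Hereward was the high cultivar. Against the mean of the other cultivars its WSZ1c was higher by 0.56 (SE 0.09, limma adjusted p = 3.37e-07) and its WSZ2b by 0.33 (SE 0.08, limma adjusted p = 0.000418), in a contrast that called 17.9% of all probe sets, 9.61% as higher. Its WSZ1c plots read 10.74 at the lowest, 11.35 at the median and 12.19 at the highest, and the 3 from Rothamsted in 2011 were 11.89, 12.15 and 12.19. Beside this, 3 of the 4 embryo and maturation genes were higher in Hereward (differences of 0.80 to 1.06 over the 4, with 2 called without replicate 2 or replicate 3), and their part in the serpin values was not tested. In pairs of cultivars, which called 16.3% of probe sets over the 15 pairs together, WSZ1c of Hereward was above that of each other cultivar, by 0.37 over Malacca (limma adjusted p = 0.0256) to 0.71 over Xi_19 (adjusted p = 6.7e-07). WSZ2b of Hereward was above that of Cordiale by 0.34, of Istabraq by 0.47, of Marksman by 0.37 and of Xi_19 by 0.36 (limma adjusted p of 9.84e-05 to 0.00633), and did not pass against Malacca.

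Among the other 5 cultivars, 1 pair passed for WSZ1c and 2 for WSZ2b, and for WSZ2a the 4 pairs with Malacca did. Of the 15 pairs in all, 6 passed for WSZ1c, 7 for WSZ2a, 6 for WSZ2b and 0 for WSZ1b. Beside the pairs with Hereward, Malacca exceeded Xi_19 for WSZ1c (0.34, limma adjusted p = 0.0335), and Malacca exceeded Istabraq (0.37, adjusted p = 0.00381) and Xi_19 (0.27, adjusted p = 0.0423) for WSZ2b. WSZ1c of Xi_19 was below the mean of the others by -0.28 (SE 0.09, limma adjusted p = 0.0139, with 27.1% of probe sets called, 13.1% as lower), a call lost without replicate 2 (0.322) and replicate 3 (0.102). Its plots read 9.71, 10.64 and 11.99 (lowest, median and highest), which overlap those of Hereward. WSZ2b of Istabraq was below the others by -0.24 (SE 0.08, limma adjusted p = 0.0183, with 16.1% called, 7.41% as lower), and this call was lost when any 1 replicate was left out.

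For WSZ2a the order of the other cultivars was Hereward, Cordiale, Xi_19, Istabraq and Marksman, with means of 12.97, 12.76, 12.70, 12.62 and 12.52. Among these only Hereward against Istabraq (0.35, limma adjusted p = 0.0355) and Hereward against Marksman (0.45, adjusted p = 0.00317) passed, and no other pair without Malacca did. Contrasts of these cultivars with the mean of all others are positive for each of them, from 0.35 in Marksman to 0.89 in Hereward, because that mean contains Malacca.

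The comparison of sites set RAGT against Rothamsted at N200 within a season. In 2010 all 4 serpins were lower at RAGT: WSZ1c by -0.62 (SE 0.11, 1.53-fold, limma adjusted p = 3.34e-06), WSZ2a by -0.58 (SE 0.11, adjusted p = 1.02e-05), WSZ2b by -0.54 (SE 0.09, adjusted p = 7.26e-07) and WSZ1b by -0.16 (SE 0.04, adjusted p = 0.000833). In this comparison 30.5% of all probe sets were called, 14.6% as lower and 15.9% as higher. The call of WSZ1b was lost without replicate 1 (-0.10, adjusted p = 0.112), which holds the lowest WSZ1b plot of the study, in Malacca at RAGT, where the plots read 12.91, 13.49 and 13.58. The values without Malacca were -0.51 for WSZ1c, -0.50 for WSZ2a, -0.50 for WSZ2b and -0.11 for WSZ1b. The embryo and maturation genes were also lower at RAGT in 2010, 4 of 4, by -1.55 to -2.85, and their mean per plot was 7.33 to 9.08 at RAGT against 8.21 to 11.22 at Rothamsted. Their part in the serpin values was not tested.

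By plot, the WSZ1c values at RAGT in 2010 were 9.60, 10.54 and 11.04 (lowest, median and highest of 18), below the 9.85, 11.05 and 11.99 of Rothamsted but overlapping them. WSZ2b read 12.10, 12.67 and 13.11 at RAGT and 12.72, 13.16 and 13.67 at Rothamsted. The difference was widest in Istabraq and Malacca. In Istabraq the WSZ1c plots read 9.60, 10.24 and 9.84 at RAGT and 11.13, 10.96 and 10.71 at Rothamsted, and the WSZ2b plots 12.10, 12.46 and 12.26 against 13.46, 13.16 and 13.10. In Malacca the WSZ1c plots read 10.01, 10.36 and 10.38 against 11.51, 11.40 and 11.24. Neither cultivar had overlapping plots in these comparisons. In the other cultivars the site difference of WSZ1c in 2010 was -0.20 in Cordiale, -0.33 in Xi_19, -0.39 in Marksman and -0.59 in Hereward (SE 0.26 each).

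In 2011 none of the 4 serpins passed between sites, in a comparison that called 5.82% of all probe sets. RAGT differed from Rothamsted by -0.29 for WSZ1c (SE 0.11, limma adjusted p = 0.0929), by -0.19 for WSZ2a (adjusted p = 0.341), by -0.15 for WSZ2b (adjusted p = 0.364) and by -0.03 for WSZ1b (adjusted p = 0.730). The WSZ1c plots read 10.79, 11.41 and 12.18 at RAGT and 11.28, 11.68 and 12.30 at Rothamsted. The embryo and maturation genes held 0 of 4 calls in 2011, with plot means of 6.13 to 7.72 at RAGT and 6.02 to 7.24 at Rothamsted.

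The site difference itself differed between the years for WSZ2a (0.39, SE 0.15, limma adjusted p = 0.0397) and WSZ2b (0.39, SE 0.13, limma adjusted p = 0.0121), and did not pass for WSZ1c (0.32, limma adjusted p = 0.0981) or WSZ1b (0.13, limma adjusted p = 0.0630). Here 29.4% of all probe sets were called, 14.4% with a more positive value in 2011. The call of WSZ2a was lost without any 1 of the replicates and that of WSZ2b without replicate 1 or replicate 2. Both were also lost after quantile normalization of all arrays (adjusted p = 0.0719 and 0.0523), and when the replicate number was fitted as a block. The embryo and maturation genes differed in the same direction, 4 of 4, by 1.53 to 2.81 (3 of 4 without replicate 3). By cultivar, Istabraq went from -1.02 in 2010 to 0.27 in 2011 for WSZ2a and from -0.97 to 0.23 for WSZ2b, whereas Malacca stayed at -0.97 and -0.98 for WSZ2a (SE 0.26 each).

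**Figure D3:**
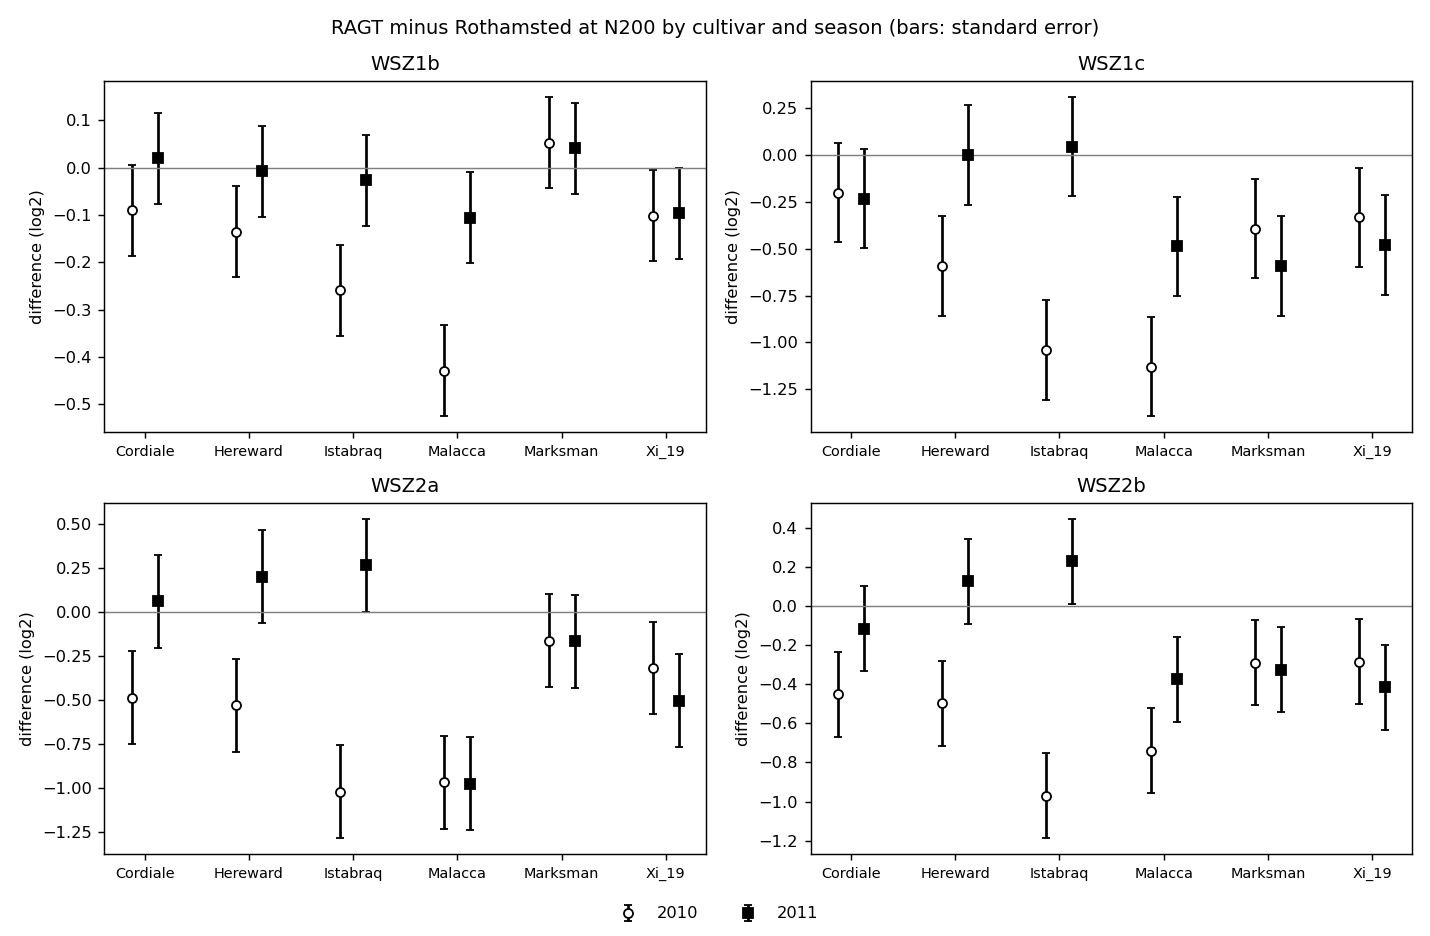
Difference in log2 signal between RAGT and Rothamsted at N200 (vertical axis) for each cultivar (horizontal axis) in 2010 and 2011, with bars of 1 SE from the limma fit, 1 panel per serpin. The WSZ2a value of Istabraq moves from -1.02 to 0.27 between the years while that of Malacca is -0.97 and -0.98.

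Seasons were compared at N200 after the median of each array was set to the same value, because the deposited distributions fall into 1 set per season. Against that reference the median over all probe sets was 0.02 for 2010 minus 2009, 0.14 for 2011 minus 2010 at Rothamsted and 0.15 for 2011 minus 2010 at RAGT, and the calls took 57.7%, 77.1% and 74.1% of all probe sets (32.9%, 52.7% and 53.5% as higher). From 2009 to 2010 at Rothamsted, WSZ1c rose by 0.86 (SE 0.11, limma adjusted p = 2.71e-11), WSZ2a by 0.87 (SE 0.11, limma adjusted p = 1.11e-11) and WSZ2b by 0.55 (SE 0.09, limma adjusted p = 9.66e-08), while WSZ1b did not pass (0.08, limma adjusted p = 0.0881). WSZ1b had the opposite sign in the values as deposited (-0.10) and after quantile normalization of all arrays (-0.12).

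From 2010 to 2011 WSZ1c rose at both sites, by 0.50 at Rothamsted (SE 0.11, limma adjusted p = 1.78e-05) and by 0.86 at RAGT (SE 0.11, limma adjusted p = 5.72e-12). WSZ2a and WSZ2b rose at RAGT, by 0.41 and 0.40 (limma adjusted p = 0.000329 and 3.09e-05), and did not pass at Rothamsted (-0.02 and -0.03, limma adjusted p = 0.853 and 0.752), where the sign turned in the values as deposited (0.16 and 0.15). WSZ1b differed by 0.13 at Rothamsted (limma adjusted p = 0.00181) and by 0.30 at RAGT (limma adjusted p = 3.06e-11). At Rothamsted this is close to the median of all probe sets, and the call was lost without replicate 3.

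A second probe set of WSZ1b, with the suffix s_at, for probes shared by several transcripts of a family, gave another picture of the seasons. Its differences were 0.14 from 2009 to 2010 (limma adjusted p = 6.69e-05), -0.11 from 2010 to 2011 at Rothamsted (limma adjusted p = 0.000887) and 0.02 at RAGT (limma adjusted p = 0.543). The season values of WSZ1b thus depend on the probe set. Elsewhere both went together: the group means correlated with r = 0.94 over 54 groups, after the mean of each environment was taken off, and the site difference of 2010 was -0.10 on the second probe set (limma adjusted p = 0.0111).

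Markers of other tissues moved with the seasons too. The embryo and maturation genes rose from 2009 to 2010, 4 of 4, by 1.21 to 1.73, and from 2010 to 2011 4 of 4 fell at Rothamsted, by -3.35 to -4.22, and 3 of 4 at RAGT, with differences of -0.67 to -2.04. Genes of green tissue rose in 3, 4 and 3 of 4 in the same order, by up to 0.44, 0.42 and 0.52. Of all probe sets, 32.9%, 52.7% and 53.5% were called higher in these comparisons and 24.8%, 24.5% and 20.6% lower. The part of these marker genes in the season values of the serpins was not tested.

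**Figure D4:**
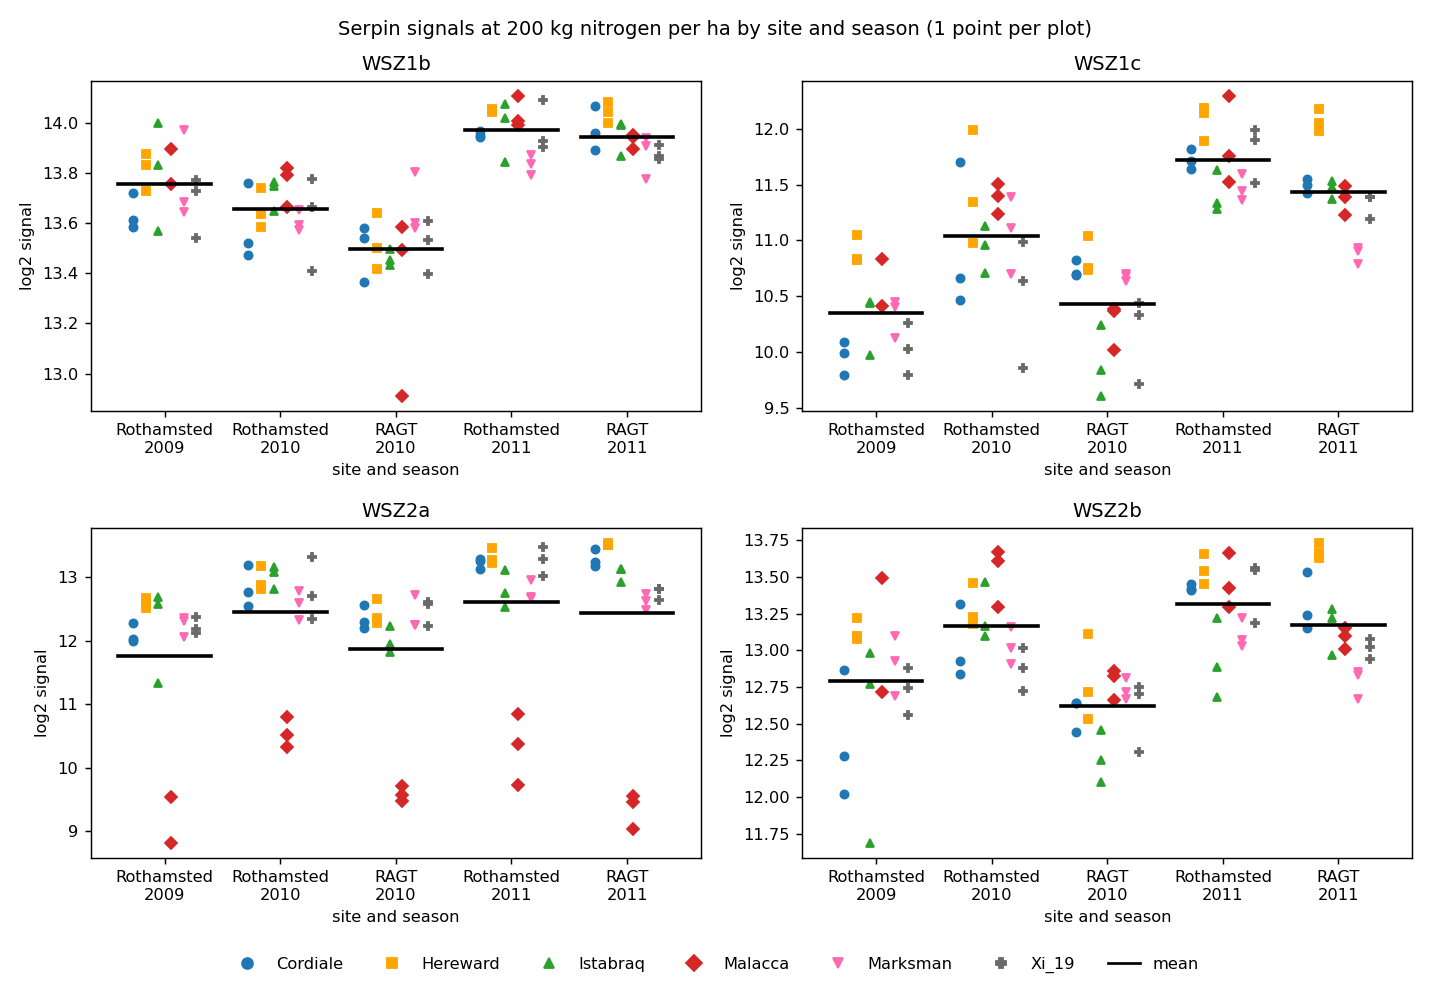
Log2 signal of each serpin (vertical axis, 1 panel per gene) in every N200 plot by site and season (horizontal axis), coloured by cultivar, as deposited, with black bars at the mean. WSZ1c plots at Rothamsted in 2011 lie between 11.28 and 12.30, above the 9.60 to 11.04 of RAGT in 2010.

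WSZ1b, WSZ1c and WSZ2b varied together over all groups, and WSZ2a varied with them once Malacca was left out. With the mean of each environment taken off, the 54 group means of WSZ1c and WSZ2b correlated with Pearson's r = 0.94 and Spearman's rho = 0.92, WSZ1b and WSZ1c with 0.88 and 0.87, and WSZ1b and WSZ2b with 0.88 and 0.87. Over the same 54 groups WSZ2a had r = 0.36 and rho = 0.54 with WSZ1b, 0.30 and 0.54 with WSZ1c, and 0.26 and 0.55 with WSZ2b. Over the 45 groups of the other cultivars the values were 0.93 and 0.94 with WSZ2b, 0.90 and 0.87 with WSZ1b, and 0.88 and 0.86 with WSZ1c. These values include the nitrogen difference on which the genes were chosen and come from the same arrays, so they are a description without a test.

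The plots of a group, which share cultivar, nitrogen supply, site and season, also varied together. The deviations of the 135 plots other than Malacca from their group means correlated with r = 0.87 for WSZ2a and WSZ2b, at the upper end, and with r = 0.56 for WSZ1b and WSZ1c, at the lower end of the 6 pairs. Over the 26 Malacca plots r ran from 0.17 for WSZ1b and WSZ2a to 0.69 for WSZ2a and WSZ2b. Spearman's rho ran from 0.32 for WSZ1b and WSZ2a to 0.76 for WSZ1c and WSZ2b in Malacca. In the other cultivars rho ran from 0.54 for WSZ1b and WSZ1c to 0.87 for WSZ2a and WSZ2b. Each pair of values comes from the same array, and quality differences between arrays enter both.

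**Figure D5:**
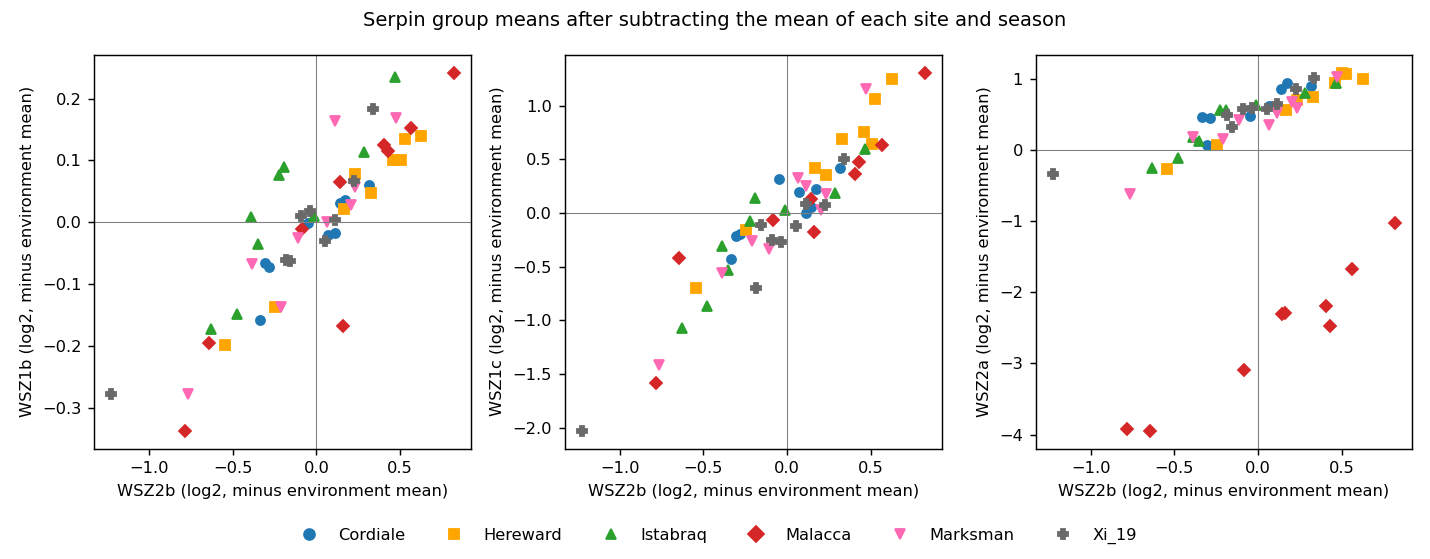
Group means of WSZ1b, WSZ1c and WSZ2a (vertical axes) against those of WSZ2b (horizontal axis), each in log2 units after the mean of its environment was taken off, with 1 point per group and diamonds for Malacca. In the first 2 panels the 54 points follow 1 band (r = 0.88 and 0.94), and in the last the 9 Malacca groups lie below the other 45.

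Among the named genes, gliadins had the patterns most similar to the serpins. Likeness was measured as Pearson's r over the group means, after the mean of each environment was taken off. It was taken among 141 probe sets with an informative gene name, of the 24401 whose mean reached 6. A gene with several probe sets is given by its most extreme r, so its other probe sets can be less similar. Over 54 groups Gli-8, an alpha gliadin by its symbol, came first for WSZ1b (r = 0.85), WSZ1c (0.86) and WSZ2b (0.81). Gli-D2-16, an alpha gliadin, came next for WSZ1b (0.75) and WSZ1c (0.64) and had 0.61 with WSZ2b, where GAG56D, a gamma gliadin, came before it (0.67). GAG56D had 0.70 with WSZ1b and 0.61 with WSZ1c, and wcH2B-8, a histone gene, had 0.50 with WSZ1c. Among all 24401 probe sets, those without an informative name included, Gli-8 was first for WSZ1c alone, while the highest r was 0.87 for WSZ1b and 0.85 for WSZ2b, each on a probe set without an informative name.

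For WSZ2a the order depended on Malacca. Over 54 groups the x_at probe set of Gli-D2-1 came first (r = 0.93), then Gli-B2-11, an alpha gliadin (0.77), Gli-D2-16 (0.58), 1-FEH, a fructan exohydrolase (0.58), and GAG56D (0.57), and Gli-8 was not among the first 5. Over the 45 groups without Malacca, Gli-8 and Gli-D2-16 came first, both with 0.86, followed by GAG56D with 0.75 and Gli-D2-1 with 0.60.

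The named genes with the lowest r were of several kinds. A probe set of ATI, an alpha-amylase and trypsin inhibitor, had r = -0.66 with WSZ1b, -0.73 with WSZ1c and -0.72 with WSZ2b, and wci had -0.65 with WSZ1b and -0.72 with WSZ1c. ALP, an avenin-like storage protein, was the lowest for WSZ1b (-0.67), and among the lowest were TUBA, an alpha-tubulin, with -0.70 for WSZ1c, and PRO1, named by its symbol alone, with -0.70 for WSZ2b. For WSZ2a the lowest was UBC1, a ubiquitin-conjugating enzyme, with -0.74 over 54 groups and -0.65 without Malacca, where THI1.1, a thionin, also had -0.65. The lowest r among all 24401 probe sets ran from -0.91 for WSZ2a to -0.76 for WSZ1b over 54 groups, each on a probe set without an informative name. Since nitrogen differences contribute to these values, they are not independent of the choice of the serpins.

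The listed inhibitors other than serpins fell with nitrogen, wci by far the most. Of 6 probe sets, from 4 genes, of amylase and protease inhibitors that are not serpins, 0 rose and 6 fell from N100 to N350. Their median was -0.12 beside a median of 0.01 over all probe sets, of which 12.3% fell. The fall was -0.52 for wci (SE 0.04, limma adjusted p = 8.64e-19), -0.14 for the ATI probe set with the widest difference and -0.04 for WMAI-1, a monomeric amylase inhibitor (limma adjusted p = 0.0361), whose call ended without replicate 2 (0.481) or replicate 3 (0.389). In the difference between seasons, wci had a more negative value in 2010 by -0.66 (limma adjusted p = 1.01e-07), and 4 of the 6 inhibitor probe sets passed in that direction, beside 0.387% of all probe sets; without replicate 2 or replicate 3 it was 1 of 6, wci. At RAGT in 2010, where the serpins were lower, 3 of the 6 were higher, among them wci by 0.48 (limma adjusted p = 5.55e-10), and 0 were lower; without any 1 replicate only wci passed. In 2011 1 of 6, WMAI-1, was higher at RAGT (0.07, limma adjusted p = 0.0262), beside 4.17% of all probe sets, and 0 passed when any 1 replicate was left out.

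Storage protein genes were mixed. Of 17 probe sets, from 8 genes, 7 rose and 5 fell from N100 to N350, with a median of 0.04. Of all probe sets 10.7% rose and 12.3% fell. Of the 8 gliadin probe sets 7 rose: GAG56D was higher by 0.44 (limma adjusted p = 2.84e-25) and 0.22 on 2 probe sets and did not pass on another (0.13, limma adjusted p = 0.172), and Gli-8 was higher by 0.07 (limma adjusted p = 6.38e-07). Of the 6 probe sets of avenin-like proteins 5 fell: ALP by -0.59 (limma adjusted p = 4.74e-13), -0.38 and -0.32 on 3 probe sets, with -0.07 on another that did not pass (limma adjusted p = 0.0750), and avnla by -0.42 (limma adjusted p = 8.93e-12) and -0.36. The 3 probe sets of Glu-D3, a glutenin locus by its symbol, did not pass. Gli-8, with a mean of 14.88, lies close to the highest signal on the arrays. In the difference between seasons 1 storage probe set was more positive in 2010 and 4 more negative. The shares over all probe sets were 0.302% and 0.387%. Without replicate 2 the storage counts were 0 and 0. At RAGT in 2010 6 storage probe sets were higher and 2 lower, beside 15.9% and 14.6% of all probe sets. The storage counts became 0 and 1 without replicate 1 or replicate 2. In 2011 they were 0 and 1, beside 4.17% and 1.65%. Of 3 starch genes, Wx-A1, the granule-bound starch synthase, fell with nitrogen (-0.12, limma adjusted p = 0.00236, and 0.0931 without replicate 3), and AGP-S, a subunit of ADP-glucose pyrophosphorylase, and BMY1, a beta-amylase, did not pass.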

How the data were processed

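Each array holds the RNA of 1 plot, and its labels give its group. The authors deposited log2 signals, 1 per probe set, made with RMA per the submitters' processing notes. The version of RMA is not given in the sources used here. Their 1st percentile was 2.29 to 2.36 in 2009, 2.12 to 2.19 in 2010 and 2.57 to 2.61 in 2011, so season contrasts were taken after each array's median was set to the same value.

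Of 61288 probe sets, 110 controls were left out and 61178 tested. A single gene was annotated for 1273 of them (771 genes, 770 matched to a RefSeq entry), and names rest on 98 genes with an informative symbol. On probe sets specific to a cultivar, 0 of 161 arrays went against their cultivar label. These probe sets were chosen with the same labels at N200, so for the N200 arrays this is no independent check. The x_at alpha gliadin probe set that ran from 4.60 to 12.61 between Malacca plots was left out of them.

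limma 3.58.1 in R 4.3.3 (data.table, version 1.17.8) fitted a mean per group to all 54 groups (107 residual degrees of freedom). Contrasts weighted groups equally and were tested with moderated statistics (two-sided, F for several cultivars), with Benjamini-Hochberg adjustment over all 61178 probe sets and calls at an adjusted p under 0.05. An SE therefore rests on the spread within all groups. The scripts were tested on simulated data. Descriptions and figures used Python 3.11.15, pandas 2.3.3, numpy 2.4.6 and matplotlib 3.10.9.

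The serpins and the gene lists were chosen with earlier results of these data known, the serpins for N350 against N100, so that contrast has no p for them. The most and least similar genes were taken by a set rule: the 5 highest and 3 lowest r among informatively named probe sets whose mean reached 6, of which those with a clear role are described. Alternatives were a replicate block (15 blocks), a minimum mean of 6, renewed quantile normalization over the whole series, an intensity trend with robust settings, array weights, restriction to the arrays in a comparison, values as deposited, and each replicate or Malacca left out; the F tests without Malacca were added after seeing the data.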

Additional observations from a re-analysis of the deposited data

Results flagged for a closer look

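The nitrogen difference of 3 serpins differed between seasons by a test of that difference: N350 minus N100 was larger in 2010 than in 2009 by 1.28 for WSZ1c, 0.78 for WSZ2a and 0.66 for WSZ2b, on the log2 scale. The site difference of WSZ2a and that of WSZ2b were each 0.39 more positive in 2011 than in 2010. The nitrogen difference of WSZ2a varied between cultivars with a range of 1.68, set by Malacca at 2.33. Of these calls, only that of WSZ1c held when each replicate was left out in turn. Over all probe sets too, N350 minus N100 had more calls in 2010 than in 2009, 12242 against 1097.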

How the results depend on the processing

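Of the serpin values under the alternatives, some of the second WSZ1b probe set included, 592 stayed the same, 35 came to pass, 25 no longer passed and 16 changed sign. Staying the same meant the same side of the threshold and, except for F tests, the same direction. For N350 against N100, which has no p for the serpins, it meant the same sign and a shift below the SD within groups. The causes were not tested, except that fewer probe sets or arrays were used where stated. With array weights these passed: against the others at N200, WSZ1b (-0.075) and WSZ2b (-0.14) of Cordiale, WSZ1c of Istabraq (-0.21) and WSZ2b of Malacca (0.23); the range of WSZ1b over cultivars (0.11); WSZ1b in the seasons' nitrogen difference (0.20) and from 2009 to 2010 (0.090); the change of the site difference of WSZ1b (0.13) and WSZ1c (0.36); and the sites in 2011 for WSZ1c (-0.29), WSZ2a (-0.20) and WSZ2b (-0.16). Called probe sets then numbered 18498 for Cordiale, 15132 for Istabraq, 13710 for Malacca, 992 and 225 for the nitrogen difference by season and cultivar, and 13309 for the sites in 2011. With the replicate block, Istabraq's WSZ1c (-0.24) and Malacca's WSZ2b (0.23) passed, the change of the site difference no longer passed for WSZ2a (0.37) and WSZ2b (0.47), and signs turned for WSZ1b between sites in 2011 (0.000165) and for WSZ2a (0.023) and WSZ2b (0.012) from 2010 to 2011 at Rothamsted; the block changed no other serpin call, and counts were 760 and 24 for the nitrogen difference by season and cultivar, and 12330, 417 and 5779 for the sites in 2010, in 2011 and their change. Replicate numbers paired the plots only weakly. In each environment, the deviations of same-numbered plots of different groups had median correlations of 0.04 to 0.17 (range -0.73 to 0.84). For plots with different numbers the medians were -0.08 to -0.02. With only probe sets of mean at least 6, Istabraq's WSZ1c (-0.24), Malacca's WSZ2b (0.21), and WSZ1b in the seasons' nitrogen difference (0.19) and the change of the site difference (0.13) passed, and counts were 8629 for N350 against N100, 10325 for Xi_19, 11904 and 11089 for the sites in 2010 and their change, 15315, 18906 and 18860 for the season contrasts, 7 for nitrogen by cultivar and 17448 for cultivars. After quantile normalization, WSZ1b of Hereward (0.083), over cultivars (0.12) and in the seasons' nitrogen difference (0.21) and Malacca's WSZ2b (0.22) passed, the change of the site difference did not for WSZ2a (0.36) and WSZ2b (0.31), and WSZ1b turned from 2009 to 2010 (-0.12). With only the arrays compared, Istabraq's WSZ1c (-0.24), Malacca's WSZ2b (0.21), the sites in 2011 for WSZ1c (-0.29) and WSZ2b (-0.15) and their change for WSZ1c (0.32) passed, nitrogen by cultivar for WSZ2a (1.68) did not, and counts were 91 and 1 for the nitrogen difference by season and cultivar and 12202 for the sites in 2011. As deposited, WSZ1b turned from 2009 to 2010 (-0.10), as did WSZ2a (0.16) and WSZ2b (0.15) from 2010 to 2011 at Rothamsted; without Malacca the latter were 0.062 and 0.017, the range of nitrogen by cultivar of WSZ2a was 0.48 and its count 2.

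Leaving out 1 replicate in turn gave these ranges. Against the others at N200 they were -0.081 to 0.000738 for WSZ1c of Cordiale, -0.014 to 0.043 and -0.28 to -0.21 for WSZ1b and WSZ2b of Istabraq, -0.038 to 0.087 and 0.13 to 0.30 for WSZ1b and WSZ2b of Malacca, -0.044 to 0.00129 and 0.32 to 0.41 for WSZ1b and WSZ2a of Marksman, and -0.39 to -0.18 for WSZ1c of Xi_19. The seasons' nitrogen difference ran from 0.70 to 0.88 for WSZ2a and from 0.52 to 0.86 for WSZ2b, and nitrogen by cultivar from 1.11 to 1.35 for WSZ1c and from 1.296 to 2.09 for WSZ2a. From 2010 to 2011 at Rothamsted, WSZ1b ran from 0.10 to 0.18, WSZ2a from -0.11 to 0.042 and WSZ2b from -0.085 to 0.00647. The sites in 2010 gave -0.21 to -0.10 for WSZ1b, and their change 0.35 to 0.43 for WSZ2a and 0.33 to 0.43 for WSZ2b. Counts of calls ran from 5282 to 8215 for Cordiale, 6696 to 8221 for Hereward, 6006 to 6736 for Istabraq, 4773 to 5815 for Malacca, 4845 to 6728 for Marksman, 8985 to 13068 for Xi_19, 4807 to 12448 for N350 against N100, 18833 to 21476 for cultivars, 36 to 1840 and 0 to 1012 for the nitrogen difference by season and cultivar, and 11108 to 15331, 1069 to 2139 and 8836 to 14500 for the sites in 2010, in 2011 and their change. Signal over background could not be given from normalized values, and the number of arrays limits the precision.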
